A study of Mus musculus with 6 samples.

Results

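The vitamin D synthesis and response set consists of 6 genes, Vdr, Rxra, Cyp2r1, Cyp24a1, Cyp27a1 and Cyp27b1, followed here in mouse back skin after repeated ultraviolet B (UVB) exposure. Its members were taken by gene name among the non-control probes of the arrays, which gave 8 probes of 55681 and 6 targets of 36282, a target being a gene or, where the array gives no gene, a transcript. Vdr, Cyp24a1, Cyp27a1 and Cyp27b1 each had 1 probe, and Rxra and Cyp2r1 each had 2. The UVB group held 3 C57BL/6 male mice aged 6 to 8 weeks whose backs were shaved and, 2 days later, irradiated under anaesthesia at 180 mJ/cm2, 3 times a week for 2 weeks. The control group held 3 C57BL/6 male mice of the same age range that were shaved, kept dark and received no UVB. For the controls the labels mention no anaesthesia, so UVB and anaesthesia cannot be told apart, and the labels give no interval from the last irradiation to sampling. RNA of each skin was hybridised to its own 1-colour Agilent array.

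Skin is where vitamin D3 is made: UVB photons open the B ring of 7-dehydrocholesterol, a late intermediate of cholesterol synthesis, to give previtamin D3. The prohormone is hydroxylated at carbon 25, chiefly by CYP2R1 and also by the mitochondrial sterol 27-hydroxylase CYP27A1, and then at carbon 1 by CYP27B1 to give the active hormone calcitriol. Calcitriol binds the vitamin D receptor VDR, which pairs with the retinoid X receptor RXRA on DNA, and CYP24A1, encoded by a classic target gene of that receptor, inactivates the hormone. Keratinocytes hold all of these steps, and Vdr is also required for normal hair cycling in mice.

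The probe sequences of Cyp2r1 and Rxra are shown because each of these genes was read by 2 probes, and that of Cyp27a1 because it was the only member called when the brightest tested probe stands for a gene. All are 60 bases long, although the files' interval for the brighter Rxra probe spans 59, are written 5′ to 3′ in lower case as the array files give them, and carry mm9 positions from those files. The brighter Cyp2r1 probe lies at chr7:121693769-121693828 and the dimmer at chr7:121693684-121693743, both on the minus strand, with 25 bases between them. For Rxra the brighter probe lies at chr2:27618781-27618839 and the dimmer at chr2:27615316-27615375, both on the plus strand, with 3405 bases between them. The Cyp27a1 probe lies at chr1:74782203-74782262 on the plus strand.
Cyp2r1 brighter: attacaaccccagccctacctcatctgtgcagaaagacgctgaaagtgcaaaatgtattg
Cyp2r1 dimmer: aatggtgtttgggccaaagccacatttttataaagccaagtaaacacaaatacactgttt
Rxra brighter: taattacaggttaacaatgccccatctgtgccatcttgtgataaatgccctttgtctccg
Rxra dimmer: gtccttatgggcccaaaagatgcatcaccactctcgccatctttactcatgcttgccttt
Cyp27a1: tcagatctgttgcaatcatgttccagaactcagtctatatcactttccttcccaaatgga
The remaining probes lie at chr15:97685136-97685195 (Vdr, minus strand), chr2:170308865-170308924 (Cyp24a1, minus strand) and chr10:126489922-126489981 (Cyp27b1, plus strand). Exons and untranslated regions at these positions were not looked up, because no mm9 annotation was used here.

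Each array held 62976 spots, of which 54.9% to 63.3% of the non-control spots were well above background and 0 were saturated. Levels are log2 signals relative to the 75th percentile of the same array, so a level is comparable between arrays for 1 probe but not between probes. Correlations of log2 signal were 0.980 to 0.991 between arrays of a group and 0.953 to 0.972 between groups. The arrays shared 1 slide and 1 scan. Row 1 of the slide held UVB replicate 1 and the 3 controls, and row 2 held UVB replicates 2 and 3. Keratinocyte markers were detected for 7 of 7 genes, among them the basal keratins Krt5 and Krt14. In whole skin, fewer cells of a type and less RNA per cell cannot be told apart.

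With the brightest tested probe standing for each gene, Cyp27a1 was the 1 member called, and it was lower after UVB. Its level was -3.60, -3.64 and -3.68 in the 3 UVB skins, against -2.83, -3.07 and -2.63 in the 3 control skins. The groups did not overlap, and the UVB skins lay closer together than the controls. The means were -3.64 ± 0.039 after UVB and -2.84 ± 0.22 in controls (SD, n = 3 each), a log2 fold change of -0.80 with a standard error of 0.14 and a 95% interval of -1.15 to -0.45. That is 1.74-fold lower after UVB, with a limma adjusted p of 0.0215. Of the 5 members tested, 1 was called (20%), beside 12.6% of all 24432 targets tested (3069, with 1356 or 5.55% higher and 1713 or 7.01% lower), so the share says little about the set as a whole.

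The Cyp27a1 probe is printed at 10 spots on the array, which allowed its reading to be followed spot by spot. The spots spanned -3.85 to -3.36, -4.08 to -3.35 and -4.07 to -3.47 on the 3 UVB arrays, against -2.91 to -2.74, -3.09 to -3.03 and -2.84 to -2.39 on the 3 control arrays. No UVB spot reached the level of any control spot used. The spots on an array are copies of the same probe read with the same RNA, so the comparison remains 3 skins against 3. On control replicate 2 the scanner software had flagged 4 of the 10 spots as outliers and on control replicate 1 a single spot, and with these kept the adjusted p was 0.0208. The probe is dim: its mean processed signal was 29.0, 25.2 and 23.6 on UVB arrays, against 51.1, 61.9 and 78.2 on control arrays.

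**Figure D1:**
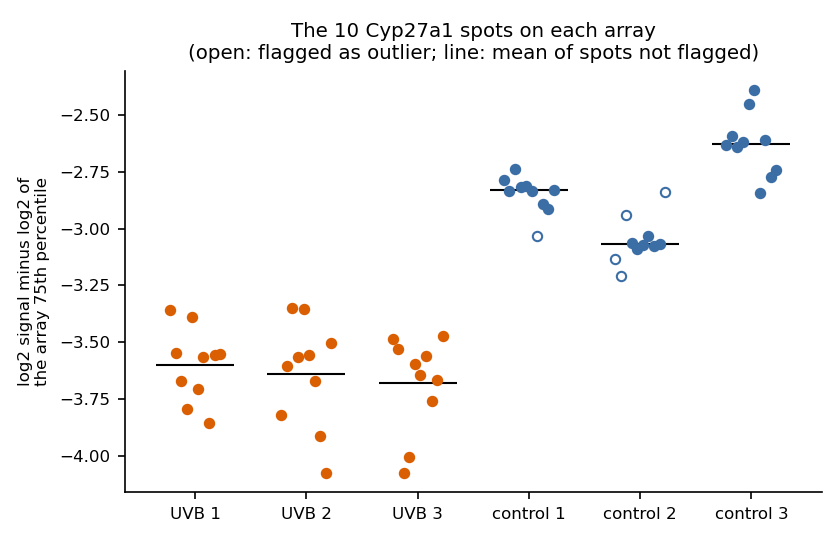
Each point is 1 of the 10 Cyp27a1 spots on an array, as log2 signal minus log2 of the array's 75th percentile, with the 3 UVB arrays on the left and the 3 control arrays on the right; open points were flagged as outliers and lines are means of the other spots. The UVB means lie between -3.68 and -3.60 and the control means between -3.07 and -2.63.

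The call on Cyp27a1 rests on how dim signals are treated and on the number of arrays. Normexp background correction was run on the unprocessed mean signals and adds an offset of 50, where this probe's processed signals were 23.6 to 78.2. With it the log2 fold change was -0.11 (adjusted p = 0.534). Leaving out any array other than control replicate 2 took the adjusted p past the threshold, up to 0.0693, and with slide row as a covariate the value was -0.76 (adjusted p = 0.174). The 18520 probes that were well above background on 0 of 6 arrays stood higher on UVB arrays by a median of 0.54 after scaling. Before scaling, the median signal of these probes was 3.22, 3.68 and 2.95 on UVB arrays, against 3.00, 3.20 and 3.25 on control arrays. The part of this shift in the Cyp27a1 result was not tested. Cyp27a1 is known to be well expressed in macrophages, and of 5 tested macrophage markers (of 6, Cd68 failing the filter) Adgre1 and Csf1r were lower. The rest of the 5 did not pass, at -0.71 for C1qa, -0.0085 for Mrc1 and 0.45 for Cd14. The summed linear level of those 5 markers was 5.89 to 8.76 after UVB and 18.6 to 20.6 in controls, and their part in the Cyp27a1 result was not tested. In this and the later marker sums the brightest probes weigh most, as levels are not comparable between probes.

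Cyp2r1, which encodes the main hepatic 25-hydroxylase, gave opposite readings at its 2 probes. The brighter probe stood at 2.43, 2.57 and 2.52 in UVB skins, against 2.46, 1.99 and 1.84 in control skins. Control replicate 1 lay within the UVB range and the other two controls below it, and the log2 fold change of 0.41 (95% interval -0.032 to 0.85) did not pass (adjusted p = 0.184). Before scaling, the processed signals were 1900, 1863 and 1734 on UVB arrays, against 1998, 2063 and 1738 on control arrays. The 75th percentiles that scale them were 352, 315 and 302 on UVB arrays, against 363, 519 and 484 on control arrays. At the dimmer probe the level was -1.95, -1.54 and -1.82 in UVB skins, against -1.22, -1.17 and -1.04 in control skins, without overlap. Its log2 fold change was -0.62 with a standard error of 0.15 and an adjusted p among all tested probes of 0.0470, where 11.2% of probes were called. That call was lost when any array other than UVB replicate 2 was left out (up to 0.143). It was also lost with median scaling (0.0585), normexp (0.0548), no filter on dim probes (0.0818) and the replicate number as a block (0.122). With slide row as a covariate the log2 fold change of this probe was -0.80.

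The brighter minus the dimmer Cyp2r1 probe was 4.38, 4.11 and 4.34 in UVB skins, against 3.68, 3.16 and 2.89 in control skins. The difference between groups was 1.03 (exact two-sided permutation p = 0.1, the smallest that 3 against 3 arrays allow). The files list 3 Ensembl transcripts for the brighter probe and 1 for the dimmer, with 0 shared, although the probes lie 25 bases apart and carry the same RefSeq transcript. Averaging both probes gave -0.11, so no direction for Cyp2r1 as a gene can be read from these arrays.

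Cyp27b1, the 1-alpha-hydroxylase that makes calcitriol, stood at -3.34, -3.24 and -3.54 in UVB skins, against -2.47, -2.68 and -3.28 in control skins. Control replicate 3 lay within the UVB range, and the other two controls lay above it. The means were -3.37 ± 0.15 after UVB and -2.81 ± 0.42 in controls (SD, n = 3 each), and the log2 fold change of -0.57 (95% interval -1.12 to -0.015) did not pass (adjusted p = 0.150). Without control replicate 3 the value was -0.80 with an adjusted p of 0.0496, and without any other array it did not pass (up to 0.336). This probe was dim as well, with signals of 34.6, 33.2 and 26.0 on UVB arrays and 65.4, 81.2 and 49.9 on control arrays, and normexp gave -0.014.

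Cyp24a1, the 24-hydroxylase that degrades calcitriol, was near the limit of detection. Its level was -5.05, -4.31 and -4.04 in UVB skins, against -5.25, -5.41 and -6.32 in control skins. These scaled levels did not overlap. Before scaling, the processed signals were 10.65, 15.84 and 18.33 on UVB arrays, against 9.55, 12.22 and 6.04 on control arrays. Those signals overlapped, with UVB replicate 1 below control replicate 2. The probe was well above background on 1 of 3 UVB arrays (replicate 3) and on 0 of 3 control arrays. It therefore failed the filter and was not tested. The measured means were -4.47 after UVB and -5.66 in controls, a difference of 1.19. With 0 control arrays and 1 UVB array well above background, no fold is given. With no filter the adjusted p was 0.0811, and the difference was 0.56 with normexp and 0.61 within slide row 1. The 18520 probes not well above background anywhere themselves stood a median of 0.54 higher on UVB arrays after scaling.

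Vdr, the receptor, stood at 3.20, 3.14 and 3.11 in UVB skins, against 3.31, 3.56 and 3.40 in control skins. Each UVB skin was below each control skin. The means were 3.15 ± 0.047 after UVB and 3.42 ± 0.12 in controls (SD, n = 3 each), and the log2 fold change of -0.27 (95% interval -0.56 to 0.013) did not pass (adjusted p = 0.174). Groups without overlap were common, at 38.5% of all targets tested and 22.6% with UVB lower, so the separation of Vdr is near that background. The probe was bright, at signals of 3237, 2774 and 2602 on UVB arrays and 3607, 6102 and 5120 on control arrays, and normexp gave -0.31.

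Rxra, the partner of VDR, did not pass at either of its 2 probes. The brighter probe stood at -0.76, -0.76 and -1.12 in UVB skins, against -0.92, -0.89 and -0.80 in control skins. The UVB range enclosed the control range, and the log2 fold change was -0.0083 (95% interval -0.35 to 0.34, adjusted p = 0.978). The dimmer probe stood at -1.64, -1.77 and -1.66 in UVB skins, against -1.41, -1.29 and -1.26 in control skins. These did not overlap, yet the log2 fold change of -0.37 with a standard error of 0.12 did not pass among all tested probes (adjusted p = 0.0952). The brighter minus the dimmer probe was 0.88, 1.01 and 0.55 after UVB and 0.50, 0.40 and 0.46 in controls, a difference between groups of 0.36 (exact two-sided permutation p = 0.1, the smallest possible).

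**Figure D2:**
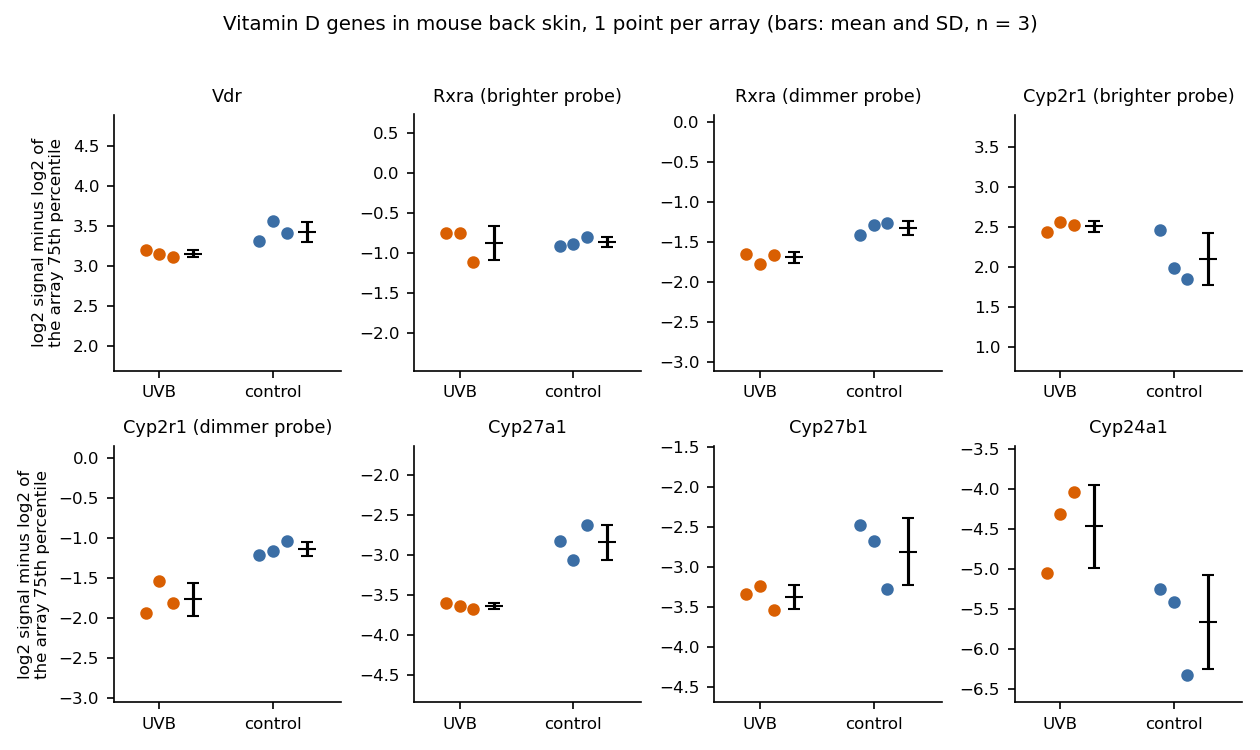
Level of each of the 8 probes on each array, as log2 signal minus log2 of the array's 75th percentile, with UVB left of control in every panel and the mean ± SD beside the 3 points; all panels span the same height. UVB and control points are apart for Cyp27a1, Vdr, the dimmer probes of Rxra and Cyp2r1, and Cyp24a1, of which the last was well above background on 1 array.

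**Figure D3:**
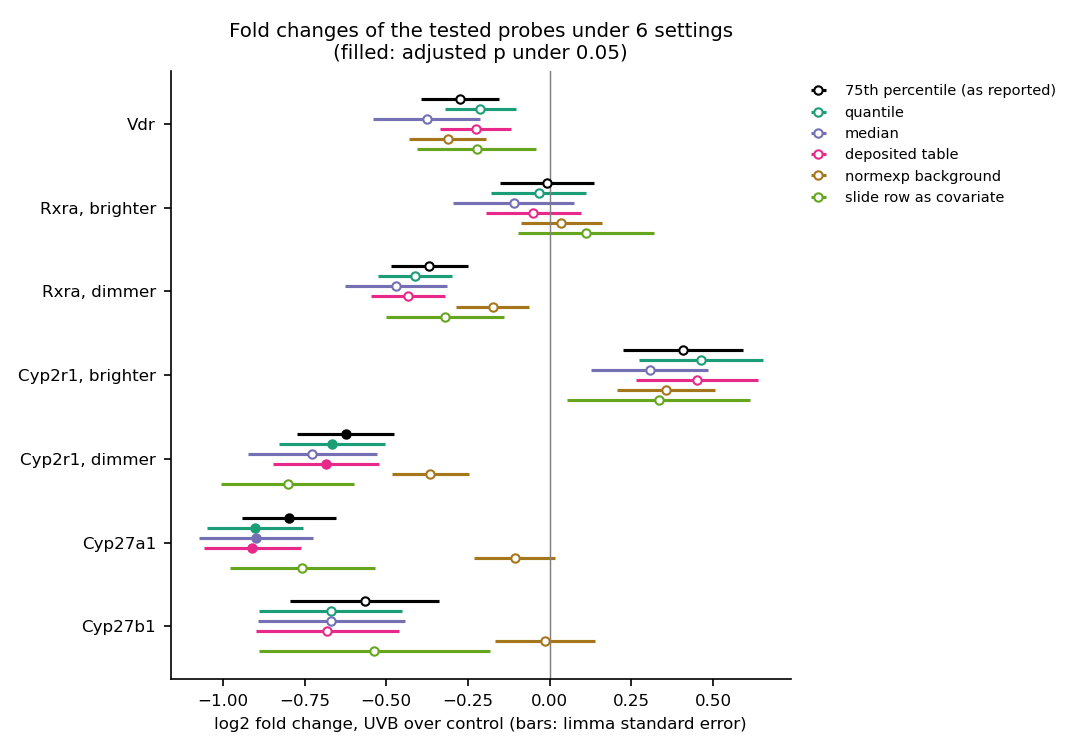
Log2 fold change of UVB over control with its limma standard error for the 7 tested probes under 6 settings, filled where the adjusted p was under 0.05. Cyp27a1 lies between -0.91 and -0.76 in every setting shown but normexp (-0.11), while Rxra (brighter probe) lies on both sides of 0.

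The substrate of the photoreaction comes from sterol synthesis, and 11 genes of that route were tested. After UVB, 4 fell (36.4%, beside 7.01% lower over all targets), 0 rose and 7 did not pass. Of the 11 values 9 were below 0, as were 13019 of all 24432 targets. The median log2 fold change was -0.47, beside -0.036 over all targets. The genes that fell were Hmgcs1, an early enzyme of the mevalonate route, Lss, which closes the sterol rings, and Msmo1 and Nsdhl, which remove methyl groups from carbon 4. Lss averaged -0.21 after UVB and 0.83 in controls, a log2 fold change of -1.04 (adjusted p = 0.0319). Nsdhl averaged 0.091 after UVB and 1.09 in controls (adjusted p = 0.0223). The log2 fold change was -0.73 for Msmo1 (0.0218) and -0.65 for Hmgcs1 (0.0206), the adjusted p in brackets.

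The enzymes nearest to 7-dehydrocholesterol itself did not pass. Sc5d, which makes it, had a log2 fold change of -0.12 (adjusted p = 0.643). Dhcr7, which converts it to cholesterol and so competes with the photoreaction, had -0.043 (95% interval -0.66 to 0.57, adjusted p = 0.928). The sterol calls depended on single arrays: without UVB replicate 1, UVB replicate 3, control replicate 2 or control replicate 3 the count was 0, without UVB replicate 2 it was 2 and without control replicate 1 it was 5. Of 5 sebaceous gland markers, all tested, Scd1 fell and the summed linear level was 21.6 to 29.9 after UVB and 40.1 to 64.6 in controls. The part of the glands in the sterol result was not tested.

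Among 7 other hydroxylases and electron partners of the vitamin D enzymes, 6 were tested and 1 rose (16.7%, beside 5.55% higher over all targets). Cyp3a13, a member of the CYP3A family of drug-metabolising enzymes, averaged 1.37 after UVB and 0.46 in controls, a log2 fold change of 0.92 (adjusted p = 0.0298). Its second probe gave 0.35 and did not pass among probes (0.129), and the call was lost whichever array was left out (0.0580 to 0.0858). The electron carriers of the mitochondrial enzymes did not pass, at -0.16 for Fdx1 (adjusted p = 0.430) and 0.090 for Fdxr (0.618). Por, which serves the microsomal CYP2R1, had 0.0086 (0.985). Of 5 transport and uptake genes only 2 were tested and 0 called: Gc, the serum binding protein made by liver, and Lrp2, a renal uptake receptor, were well above background on 0 of 6 arrays, and Cubn was on 1.

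The other RXRs and the receptors that pair with RXR gave 12 tested genes, with a median of -0.25. Of these, 3 fell (25%, beside 7.01% lower over all targets) and 9 did not pass. Pparg, the receptor that drives adipocyte and sebocyte differentiation, stood at 1.08, 0.55 and 0.79 in UVB skins, against 2.25, 2.43 and 2.32 in control skins. The groups lay far apart, with every UVB skin below every control skin, and the log2 fold change was -1.53 with a standard error of 0.16 (adjusted p = 0.00512). Ppara, the fatty acid sensor, fell by 1.33 on the log2 scale (adjusted p = 0.00833), although 1 of its 3 probes, at -0.54, did not pass among probes (0.0719). Nr1h3, which encodes the oxysterol receptor LXR alpha, fell by 1.07 (0.0212). Rxrb and Rxrg, the paralogs of Rxra, did not pass at -0.22 (0.326) and 0.16 (0.455). Pparg and Ppara passed in each of the 6 fits that left out an array, while Nr1h3 passed in 2 of them. The sebaceous gland and macrophage marker sums given above were lower after UVB too. Adipocyte markers were split, with Fabp4 higher at 4.80 (0.0158), Cidec lower at -2.66 (0.0209), Lep not past the threshold and Adipoq and Plin1 failing the filter. The part of these cells in the receptor results was not tested.

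Of 14 VDR coactivators and corepressors tested, 1 fell (7.14%, beside 7.01% lower over all targets) and 13 did not pass. The median was -0.078. Carm1, an arginine methyltransferase that acts as a coactivator, fell by 0.64 (adjusted p = 0.0252) and passed only without UVB replicate 2 when arrays were left out. Ncoa3, a coactivator of the p160 family chosen after its values were seen, had -0.077 at the probe that stands for it, while its second probe was higher by 1.42 (adjusted p among probes = 0.0351). Hr, the corepressor whose loss, like that of Vdr, leaves mice hairless, stood at 5.02, 5.30 and 5.37 in UVB skins, against 5.57, 5.49 and 5.57 in control skins. Without overlap, its log2 fold change of -0.31 did not pass (adjusted p = 0.172).

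**Figure D4:**
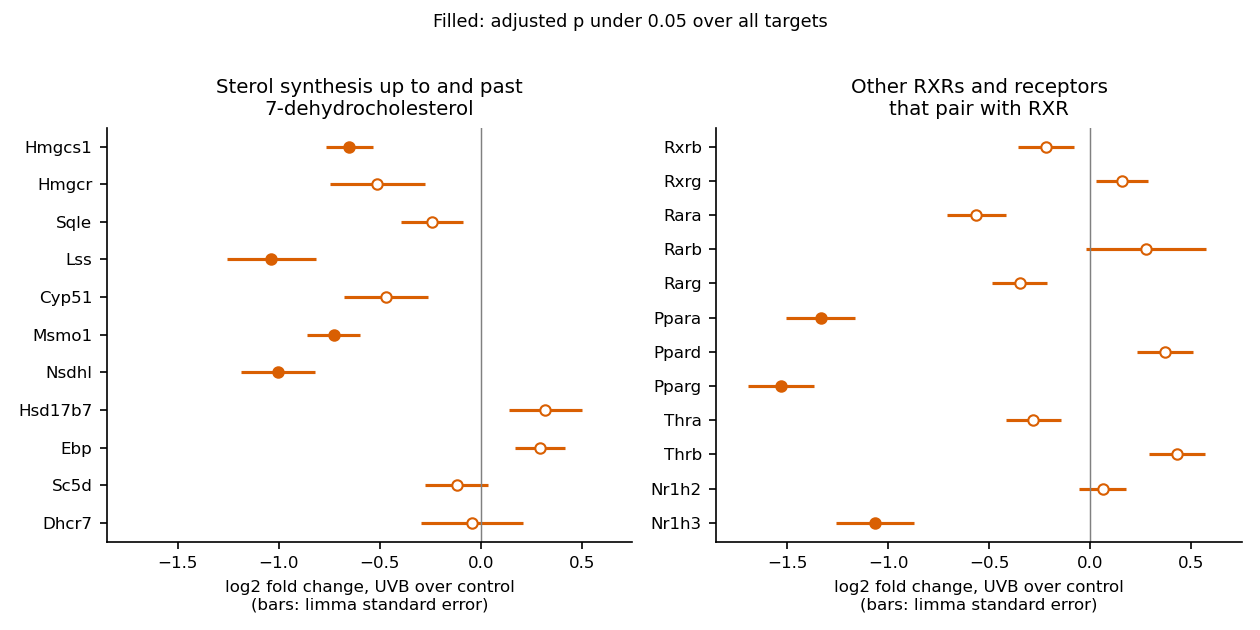
Log2 fold change of UVB over control with its limma standard error for the 11 sterol synthesis genes in pathway order (left) and the 12 other RXRs and RXR partners (right), filled where the adjusted p over all targets was under 0.05. In the left panel 9 of 11 values lie below 0, and in the right panel Pparg, Ppara and Nr1h3 lie at -1.53, -1.33 and -1.07.

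Calcium handling and mineral targets of the receptor showed 0 calls among 11 tested of 19 (0%, beside 12.6% of all targets). That count depended on the setting. Higher calls were 2 with normexp, 1 with only probes well above background on all arrays, and 1 with trended robust moderation in limma. Over all targets, higher calls in these settings were 2564, 1540 and 1797, against 1356. With 8 members not tested, the median was 0.13. By limma at an unadjusted p under 0.05, which 31.5% of all targets met, 2 of the 11 passed, Trpv6 and Fgf23. Fgf23, which encodes a hormone of phosphate balance and was chosen after its value was seen, had a log2 fold change of 0.66 (adjusted p = 0.0558). Trpv6, an epithelial calcium channel and a direct target of VDR, had 0.40 (95% interval 0.0065 to 0.79, adjusted p = 0.153). Pthlh, which encodes parathyroid hormone-related protein, a gene that calcitriol represses in keratinocytes, had -0.0078 (adjusted p = 0.982). Casr, the calcium-sensing receptor, was well above background on 0 of 6 arrays.

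Other genes described as responsive to calcitriol gave 26 tested, with a median of 0.17. Of these, 3 rose, 4 fell (26.9% called, beside 12.6% of all targets) and 19 did not pass. Fbp1, a gluconeogenic enzyme induced by calcitriol in human cells, stood at 2.85, 1.62 and 3.85 in UVB skins, against -1.90, -1.42 and -1.83 in control skins. UVB skins were well apart from one another and all far above the controls, at a log2 fold change of 4.49 with a standard error of 0.54 (adjusted p = 0.00687). Klk13, a kallikrein protease of the epidermis, averaged 3.22 after UVB and 0.39 in controls, a log2 fold change of 2.83 (0.00257). Thbd, which encodes the anticoagulant receptor thrombomodulin, had 1.39 (0.0112). Hair follicle markers summed on the linear scale to 264 to 992 after UVB and 18.3 to 20.7 in controls, and their part in these results was not tested. Fbp1, Klk13 and Thbd passed in all 6 fits that left out an array, and Klk13 also with slide row as a covariate (0.0344).

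The genes that fell in that list were Igfbp3, Hilpda, G0s2 and Txnip, the last of them outside the rule that chose the named genes. Igfbp3, a binding protein for insulin-like growth factors that calcitriol induces in several human cell lines, stood at -0.40, 0.66 and -0.78 in UVB skins, against 1.76, 1.73 and 1.68 in control skins. Its log2 fold change was -1.90 (adjusted p = 0.0240). Hilpda, a lipid droplet protein, fell by 0.67 (0.0221) and Txnip, an inhibitor of thioredoxin, fell to a mean of 2.77 after UVB, against 3.87 in controls (0.0399). The second Txnip probe, at -0.82, did not pass among probes (adjusted p = 0.0773). The Txnip call was lost with the mean of its probes (0.0517) and with no filter on dim probes (0.0626). G0s2, an inhibitor of the triglyceride lipase ATGL, averaged -5.26 after UVB and -4.29 in controls (0.0213). Its probe was well above background on 0 of 3 UVB arrays and 3 of 3 control arrays, so it passed the filter through the controls alone and supports no direction for the list, in which 3 others fell. Its call was lost with trended robust moderation (0.0779), and with normexp its sign turned (0.14). The count of 4 was 0 without UVB replicate 1 or control replicate 3, 1 without UVB replicate 2, control replicate 1 or control replicate 2, and 3 without UVB replicate 3.

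Camp and Cdkn1a, often used as readouts of calcitriol in human cells, did not pass at the probe that stands for the gene. Camp, the cathelicidin antimicrobial peptide, had 0.73 (adjusted p = 0.130) and its second probe -0.23. Cdkn1a, the cell cycle inhibitor p21 and also a target of p53 after DNA damage, had 0.48 (adjusted p = 0.115) at its brightest probe. The other Cdkn1a probes rose by 4.08 (adjusted p among probes = 0.00127) and 1.44 (0.0350), so the readings of this gene depend on the probe.

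Of 13 keratinocyte differentiation genes that have been linked to VDR, 5 rose (38.5%, beside 5.55% higher over all targets), 0 fell and 8 did not pass. The median was 0.88, with 1 of 13 values below 0. Flg, the precursor of filaggrin, stood at 9.06, 9.18 and 9.01 in UVB skins, against 4.01, 4.95 and 7.18 in control skins. The controls were spread far more widely than the UVB skins, and the log2 fold change of 3.70 had a standard error of 0.75 (adjusted p = 0.0295). Casp14, the protease that processes filaggrin, rose by 2.46 (0.00934), and Ivl, a scaffold of the cornified envelope, rose by 1.61 (0.00389) and by the same amount at its second probe. Lor, the envelope protein loricrin, rose by 0.76 (0.0274) and Ugcg, which makes the glucosylceramides of the barrier, by 0.94 (0.0364).

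The count of 5 was 3 without UVB replicate 1, 6 without control replicate 3, and 2 when any other array was left out, Ivl and Casp14 passing each time. Lor did not pass under quantile normalization (0.48, adjusted p = 0.0914), median scaling (0.65, 0.0677) or with the deposited values (0.46, 0.104). The count was 4 with quantile normalization, the deposited values or no filter on dim probes, and 3 with median scaling. With the replicate number as a block it was 1, with normexp 6 and with trended robust moderation 7. Of 9 hair follicle markers, all tested, 5 rose (Krt25, Krt27, Krt71, Krt33b and Tchh) and 0 fell, with the summed levels given above. The others did not pass, at -0.49 for Krt85 (adjusted p = 0.169), 0.67 for Lef1 (0.480), 1.41 for Hoxc13 (0.0613) and 1.06 for Msx2 (0.0953). Of 7 keratinocyte markers Trp63, a regulator of basal keratinocytes, fell by 0.51 (0.0456) and 0 rose. Their summed linear level was 2493 to 2934 after UVB and 2098 to 2522 in controls. Krt1 and Krt10 are in both this marker list and the differentiation list, so the sum is not separate from the differentiation result. The part of either marker list in the differentiation result was not tested. Over all the pathway lists, 21 genes other than the members were called, of which 7 passed in each of the 6 fits without an array (Casp14, Fbp1, Ivl, Klk13, Ppara, Pparg and Thbd). With slide row as a covariate, which compares UVB replicate 1 with the controls of its row, 1 of the 21 passed. Their signs could not change in that fit, because the UVB and control groups of each called gene did not overlap.

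**Figure D5:**
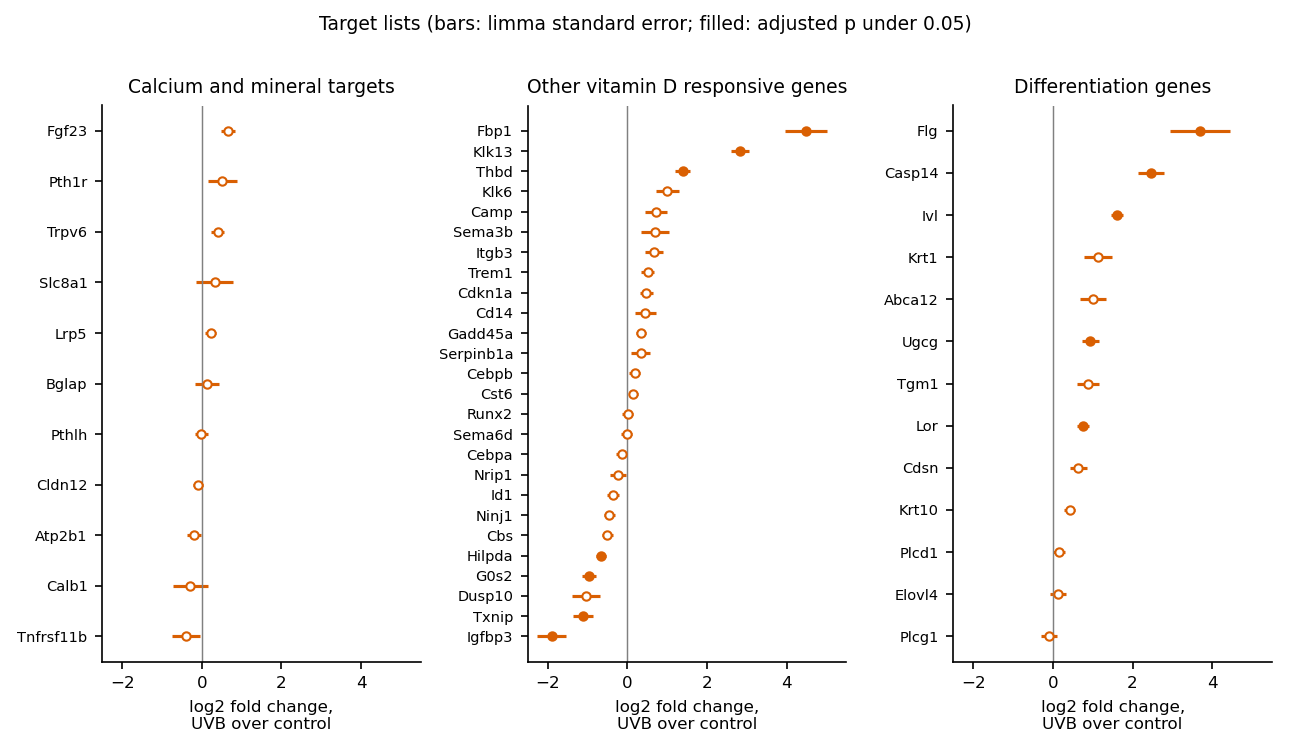
Log2 fold change of UVB over control with its limma standard error for the tested genes of 3 lists, sorted within each list and filled where the adjusted p was under 0.05. No calcium or mineral target is filled, 3 genes above and 4 below 0 are filled among the other responsive genes, and 5 differentiation genes are filled, all above 0.

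The genes most like each member over the 6 arrays were looked for among 15776 other named genes, by Pearson's r of the levels and with no test. Those nearest to Cyp27a1 were Tada3, Lrrn1 and Yif1b (r = 0.999, 0.999 and 0.995), of which Lrrn1 was called lower. For Vdr they were Slc23a2, Frs2 and Edaradd (r = 0.997, 0.997 and 0.994), for Cyp27b1 Nppb, Tmsb15b1 and Zfp946 (r = 0.996, 0.988 and 0.986). Apcdd1, Gm11545 and Actr3b were nearest to Rxra (r = 0.989, 0.983 and 0.982), and Fam174c, Gm10136 and Olfr530 to the brighter Cyp2r1 probe (r = 0.998, 0.989 and 0.987). With 6 arrays such values are common: 292 genes had an r over 0.95 with Cyp27a1, 205 with Vdr and 24 with Rxra.

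VDR and its partner bind direct repeats of a hexamer with 3 bases between the copies. Such repeats, with AGGTCA, the hexamer AGTTCA or the hexamer GGTTCA as either copy and on either strand, were searched in RefSeq promoters of GRCm38.p6, each running from 250 bases before to 50 after a start site. They were found in 8 of 32544 promoters (0.0246%). None of the 6 promoters found for 5 members (2 for Rxra) held one, which says only that these letters are not in those windows. The promoter table used held 0 entries for Cyp24a1.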

How the data were processed

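RNA from the back skin of 6 mice, 3 after UVB and 3 controls, was labelled with Cy3 from 0.2 µg per array, per the labels' protocols. Per the file headers, the authors deposited spot intensity from Agilent Feature Extraction 10.7.1.1, background-subtracted and detrended within each array, on a design placed on mm9. The deposited value table holds log2 values with array medians of 4.956 to 4.957, whose scale and quantile normalization were inferred from the values and which was used as an alternative.

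Processed intensity was taken as log2 minus each array's 75th percentile, without control and outlier-flagged spots, and spots of a probe were averaged. A probe was tested if well above background on at least 3 arrays, and the brightest tested probe stood for a gene. Names came from RefSeq by accession (26582 probes) or symbol (2602), otherwise from the file (26497 probes). Limma 3.58.1 in R 4.3.3 compared the groups over 24432 targets, with Benjamini-Hochberg adjustment and a threshold of 0.05, after tests on simulated data. Groups came from the sample labels, with each array a separate mouse per the labels. Alternatives covered scaling, background, filter, probe choice, moderation, left-out arrays, the replicate number as a block and, chosen after seeing the data, slide row and outlier flags. The text names all members with every probe, a fixed set of pathway genes, and of each list all called genes up to 6 or otherwise the 3 per direction with the smallest adjusted p. Members and lists were chosen with earlier results of these data known, and 1 gene of the sterol list is not reported here and enters none of its counts. The number of arrays limits the precision.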

Additional observations from a re-analysis of the deposited data

How the results depend on the processing

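Among the members, Vdr and the dimmer Rxra probe kept their direction and their side of the threshold under all alternatives run. Cyp27a1 kept its direction in all 18. As the groups of Vdr, this Rxra probe and Cyp27a1 did not overlap, the slide row fits and the fits without an array could not turn their direction. The Cyp27a1 call was lost with normexp (-0.11) and with slide row as a covariate (-0.76, chosen after seeing the data). It was also lost in 5 of the 6 fits without an array (-0.91 to -0.69 over the 6). Slide row 1 alone, also chosen after seeing the data, gave -0.76 for Cyp27a1. Cyp27b1 ranged over -0.80 to -0.40 without single arrays and passed without control replicate 3. Rxra turned to 0.036 with normexp, 0.11 with slide row as a covariate or row 1 alone, and ranged over -0.068 to 0.11 without single arrays, with -0.11 under median scaling and -0.19 as the mean of its probes. Cyp2r1 turned to -0.11 as the mean of its probes, G0s2 to 0.14 with normexp, and Cyp24a1 (untested) moved to 0.56 with normexp.

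The replicate numbers did not pair the samples: deviations from the group means correlated at -0.11, -0.26 and -0.079 between equal numbers. With the replicate number as a block, Cyp27a1 kept -0.80 but not its call (adjusted p = 0.0811), 0 members, 3 list genes higher and 2 lower were called, and over all targets 476 were higher and 309 lower.

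Over all targets, 1356 were called higher and 1713 lower. Higher calls were 2564 with normexp, 106 with slide row, 191 in row 1 alone and 468 to 957 without single arrays, the fewest without control replicate 2. Lower calls were 1066 with no filter, 122 with slide row, 135 in row 1 alone and 393 to 1068 without single arrays. Members called lower (1) numbered 0 with normexp, slide row and row 1 alone, 2 with every probe on its own, and 0 to 1 without single arrays. List genes called higher (9) numbered 16 with normexp and with trended robust moderation, 1 with slide row, 2 in row 1 alone and 5 to 9 without single arrays, and those called lower (12) numbered 0 with slide row, 1 in row 1 alone and 2 to 8 without single arrays. Median scaling moved the median of all targets to -0.14, against -0.036. The cause of these shifts was not tested; fits without an array also hold fewer arrays. Signal over background limits Cyp24a1, Cyp27a1, Cyp27b1 and G0s2.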

Other observations

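Marker lists of other skin cell types moved in both directions. Langerhans and dendritic cell markers summed to 62.0 to 83.9 after UVB and 149 to 165 in controls on the linear scale, and 4 of 6 fell, among them Cd207, the langerin gene, at a log2 fold change of -1.41 (limma adjusted p = 0.00833). T cell markers fell in 4 of 4 tested genes (Trac failed the filter), among them Cd3g at -2.05 (0.00360). Fibroblast markers rose in 2 of 4 tested genes, with Col1a1 at 2.35 (0.0261) and Col3a1 at 1.91 (0.0386). Neutrophil, mast cell, endothelial and skeletal muscle markers held 0 calls among 4, 3, 2 and 2 tested genes. Of 4 liver or kidney genes, Alb and Umod failed the filter and 0 of the other 2 were called.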
